A study of Mus musculus with 16 samples.

Results

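The occupancy of 8 Sox family genes, Sox1, Sox4, Sox5, Sox6, Sox7, Sox9, Sox11 and Sox17, was followed in mouse embryonic fibroblasts undergoing reprogramming. All ChIP-seq summits within the body of each gene and 50 kb to either side were taken, with gene positions of the GENCODE M21 basic annotation on mm10 (GRCm38). A summit is the position of strongest enrichment within a called peak, and a long peak can hold several. This gave 372 of the 227116 summits of the series, at 8 of 21938 protein-coding genes. ChIP-seq sequences the DNA fragments that an antibody pulls down, and 13 libraries were used.

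The cells were OG2 MEFs, fibroblasts with a GFP transgene driven by the Oct4 promoter. All were infected with pMX retroviruses for Sox2 and Klf4 (SK) and a POU factor, and day 0 was the switch into the chemically defined medium iCD1. The Oct4 antibody was used for Oct4 in Oct4-SK cells (days 1, 5 and 7), for Oct4defSox2 in Oct4defSox2-SK cells (days 1 and 5) and for Oct4 S151M (day 1). The Sox2 antibody was used at days 1 and 5 in cells given Oct4-SK, Oct6-SK or Oct4defSox2-SK. Oct4defSox2 is an Oct4 with mutations at its Sox2 interface that disrupt their dimer on DNA, and Oct4 S151M carries the Oct6 residue at a POU position that governs homodimers. Oct6 M151S, the converse mutant, was pulled down with the Oct6 antibody, and its sample is day 1 by title but day 2 by another label. The cultures were unsorted populations. ChIP of wild-type Oct6 and the 3 inputs were not analysed here. Protein from the transgenes and from the endogenous genes cannot be told apart here.

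Each group had 1 library, so there were no replicates and no p-values. Intervals are 95% intervals of counting error among summits or sites, and they compare libraries rather than conditions. Read depth is unknown in these files, so the number of summits, from 1038 (Oct4defSox2, day 5) to 101170 (Oct4 S151M), stood for yield. The score of a summit is the authors' −log10 p-value, which grows with depth. It is therefore given with its percentile among the summits of its own library. The Oct6 M151S list reached down to a score of 2.3 and the other 12 lists to between 4.00 and 4.12, so its weak summits have no counterpart elsewhere.

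Sox proteins bind DNA through an HMG box, which recognises short CCATTGT-like sequences and bends the helix. They are sorted into groups by sequence. Sox1 is a SoxB1 factor of neural progenitors, like Sox2 itself. Sox4 and Sox11 (SoxC) act in neuronal and mesenchymal progenitors. Sox5 and Sox6 (SoxD) lack an activation domain and work with Sox9 (SoxE) in cartilage. Sox7 and Sox17 (SoxF) act in endothelium and endoderm. Oct4 and Sox2 together bind the composite SoxOct element, in which a Sox site adjoins an octamer, while POU homodimers bind the palindromic MORE element.

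Summits of all 13 libraries that lay within 100 bp of the next were merged into sites, which gave 247 sites at the 8 genes. The sequences below are a selection of those described later, with examples of sites bound by Oct4 on several days, sites where a POU factor and Sox2 met, sites bound by Sox2 in every cocktail, and the Sox1 site of most libraries. Each runs from 100 bp before to 100 bp after the site, on the + strand of GRCm38. Capitals mark matches to SoxOct (up to 2 mismatches), MORE or MORE+1 (up to 1 mismatch), the octamer ATGCAAAT and the Sox sequences CCATTGT or CCTTTGT (0 mismatches), read on both strands. A SoxOct match contains the octamer positions, so both can be counted for the same bases.
Sox9 site 29044 bp downstream of the start (chr11:112811168-112811368): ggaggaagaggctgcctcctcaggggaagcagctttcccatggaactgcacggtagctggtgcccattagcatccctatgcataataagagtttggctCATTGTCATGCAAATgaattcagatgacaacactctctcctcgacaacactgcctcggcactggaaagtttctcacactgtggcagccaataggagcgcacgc
Sox1 site 22905 bp downstream of the start (chr8:12418100-12418300): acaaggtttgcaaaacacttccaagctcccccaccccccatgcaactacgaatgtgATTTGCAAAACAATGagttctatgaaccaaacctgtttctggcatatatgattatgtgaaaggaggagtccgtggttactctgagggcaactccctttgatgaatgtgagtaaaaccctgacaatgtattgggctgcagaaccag
Sox5 intronic site with Oct4 and Sox2 at day 1 (chr6:144072989-144073189): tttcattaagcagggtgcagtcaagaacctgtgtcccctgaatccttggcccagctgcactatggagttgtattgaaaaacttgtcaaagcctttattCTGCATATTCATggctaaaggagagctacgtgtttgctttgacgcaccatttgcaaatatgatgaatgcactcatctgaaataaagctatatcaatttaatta
Sox5 intronic site with Oct4defSox2 and Sox2 at day 1 (chr6:144711697-144711897): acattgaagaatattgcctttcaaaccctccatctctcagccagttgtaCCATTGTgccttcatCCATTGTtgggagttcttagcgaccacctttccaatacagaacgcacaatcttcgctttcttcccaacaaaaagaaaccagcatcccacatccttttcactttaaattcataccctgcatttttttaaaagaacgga
Sox5 intronic site with Sox2 in all 3 cocktails at day 5 (chr6:144043072-144043272): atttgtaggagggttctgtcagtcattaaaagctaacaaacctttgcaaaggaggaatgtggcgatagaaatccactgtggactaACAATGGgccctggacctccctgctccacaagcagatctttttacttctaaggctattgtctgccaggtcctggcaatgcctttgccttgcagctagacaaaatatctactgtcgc
Sox6 intronic site with Sox2 in all 3 cocktails at day 1 (chr7:115866282-115866482): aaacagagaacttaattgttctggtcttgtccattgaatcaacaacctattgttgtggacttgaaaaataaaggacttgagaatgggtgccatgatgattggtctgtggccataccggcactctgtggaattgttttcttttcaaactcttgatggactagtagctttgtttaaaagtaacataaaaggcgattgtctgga
Sox4 site 161 bp upstream of the start (chr13:28953774-28953974): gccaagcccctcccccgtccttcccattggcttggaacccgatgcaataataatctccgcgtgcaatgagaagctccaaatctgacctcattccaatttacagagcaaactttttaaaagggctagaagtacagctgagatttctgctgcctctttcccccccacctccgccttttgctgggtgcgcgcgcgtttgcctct
Sox17 coding exon site with Sox2 in 6 of 6 Sox2 libraries (chr1:4492097-4492297): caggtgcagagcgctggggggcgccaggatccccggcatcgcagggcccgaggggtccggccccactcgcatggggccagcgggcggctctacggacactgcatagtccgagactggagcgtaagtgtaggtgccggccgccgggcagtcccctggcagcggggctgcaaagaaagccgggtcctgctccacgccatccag
Sox17 coding exon site with Sox2 in 5 of 6 Sox2 libraries (chr1:4493148-4493348): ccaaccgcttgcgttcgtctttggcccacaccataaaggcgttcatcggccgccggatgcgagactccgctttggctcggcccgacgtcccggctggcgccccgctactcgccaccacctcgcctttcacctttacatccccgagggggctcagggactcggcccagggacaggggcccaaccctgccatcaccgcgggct

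The Sox9 sequence holds SoxOct without a mismatch, CATTGTCATGCAAAT, and the Sox1 sequence holds it with 1 mismatch on the other strand. The Sox5 site of Oct4 and Sox2 holds MORE with 1 mismatch and no Sox sequence. The next Sox5 site holds CCATTGT at 2 places. No match was found in the Sox4, Sox6 or either Sox17 sequence, which says only that these letters are not in these windows. By member, 3 of 10 Sox9 sites, 5 of 99 Sox5 sites, 2 of 86 Sox6 sites and 1 of 2 Sox1 sites had a SoxOct match, and the sites of Sox4, Sox7, Sox11 and Sox17 had 0.

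The first question was which of the genes were bound by which factor. Oct4 in Oct4-SK cells had a summit at 5 of the 8 genes at day 1, 4 at day 5 and 2 at day 7. The corresponding shares of all coding genes, with windows drawn the same way, were 29.8%, 25.4% and 19.0%. Oct4defSox2 reached 7 of 8 genes at day 1, against 63.0% of coding genes, and 1 of 8 at day 5, against 6.62%. Oct4 S151M reached 8 of 8, against 90.0%, and Oct6 M151S 7 of 8, against 69.0%. Sox2 in Oct4-SK cells reached 5 of 8 at day 1 and 6 of 8 at day 5, against 46.1% and 30.0%. With Oct6-SK it reached 5 of 8 and 3 of 8, against 10.5% and 14.3%. With Oct4defSox2-SK it reached 5 of 8 and 7 of 8, against 18.6% and 66.1%. These counts include weak summits. With a score of at least 10, Sox2 with Oct6-SK at day 1 reached 2 genes in place of 5. With equal numbers of the strongest summits from each library, it reached 3, Oct4defSox2 at day 1 reached 1 in place of 7, Oct4 S151M 2 in place of 8 and Oct6 M151S 1 in place of 7. These lower counts were not set against the share of all coding genes in the same settings. They therefore say nothing on the members in particular. The windows of Sox5 (1.05 Mb) and Sox6 (0.668 Mb) are longer than those of the other 6 genes (0.105 to 0.108 Mb), and longer windows hold a summit more often.

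**Figure D1:**
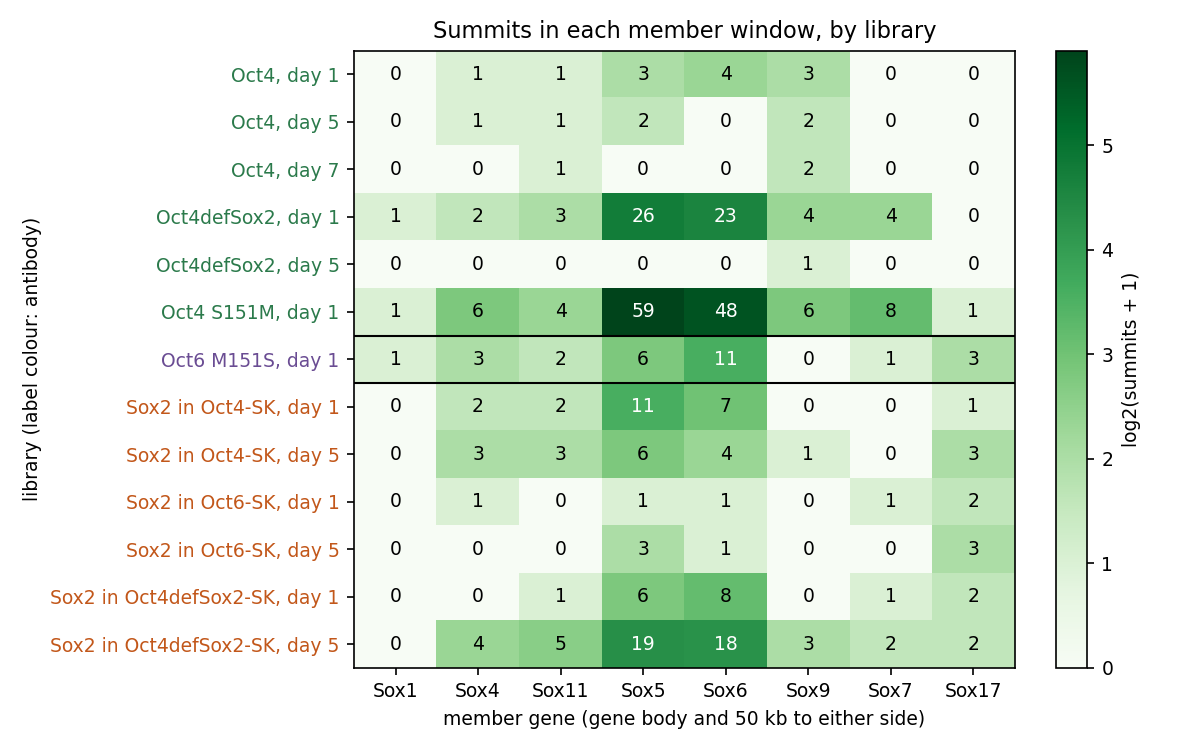
Number of summits in the window of each gene (columns) in each library (rows, label colour by antibody), with colour as log2(summits + 1). Sox5 and Sox6 hold 267 of the 372 summits, Sox1 holds 3, and wild-type Oct4 has none at Sox1, Sox7 or Sox17.

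Per Mb, the 8 windows were denser in summits than the pooled windows of all other coding genes. With the 6 Oct4 antibody libraries pooled, they held 92.4 summits per Mb (80.6 to 106) against 61.8, a ratio of 1.50 (1.30 to 1.71). With the 6 Sox2 libraries pooled, they held 53.8 per Mb (44.9 to 64.1) against 23.1, a ratio of 2.33 (1.95 to 2.78). The pooled Oct4 antibody value is largely Oct4 S151M, which gave 133 of its 218 summits. A site bound in several libraries counts once in each, so pooled summits are not independent and their intervals are too narrow. Sox2 lay above the other windows in 5 of its 6 libraries, with ratios from 1.60 (1.01 to 2.39) in Oct4-SK cells at day 1 to 3.37 (2.00 to 5.32) in Oct4defSox2-SK cells at day 1. The sixth, Oct6-SK at day 1, had 6 summits and a ratio of 2.24 (0.821 to 4.87). With all summits, the intervals of wild-type Oct4 included 1 on each day, at 1.51 (0.782 to 2.64), 1.16 (0.426 to 2.53) and 0.766 (0.158 to 2.24) for days 1, 5 and 7. Oct4defSox2 at day 1, with 63 summits, had a ratio of 2.10 (1.62 to 2.69), and Oct4 S151M one of 1.36 (1.14 to 1.61). The wild-type Oct4 lists held 12, 6 and 3 summits at these genes, too few to tell a ratio of 2.10 from 1. With equal numbers of the strongest summits from each library, wild-type Oct4 at day 1 was at 3.91 (1.06 to 10.0), past counting error, and the pooled Sox2 ratio was 5.81 (4.05 to 8.08), while the intervals of Oct4defSox2 at day 1 (2.01, 0.243 to 7.25) and Oct4 S151M (1.74, 0.210 to 6.28) included 1.

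**Figure D2:**
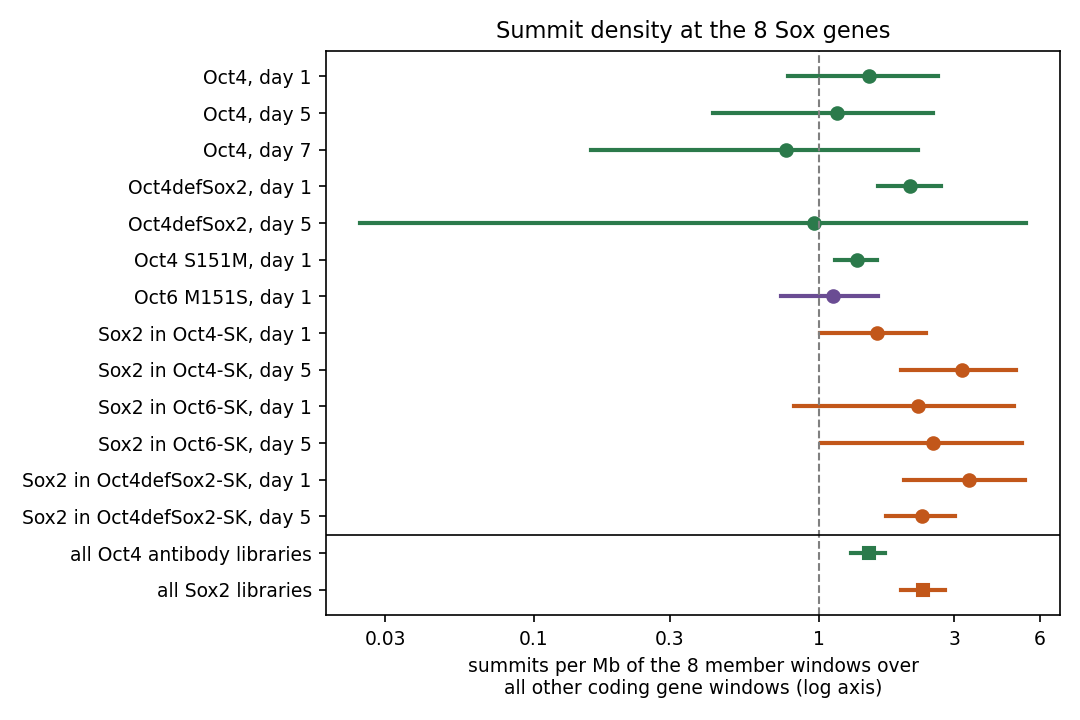
Summits per Mb in the 8 member windows over summits per Mb in all other coding gene windows, by library and pooled, on a log axis with 95% Poisson intervals of the member count. All 6 Sox2 points lie above 1 and 5 of their intervals leave out 1, while the 3 wild-type Oct4 intervals include it.

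The genes differed in which factor was found at them. Of the summits of both antibodies at Sox17, 13 of 14 were Sox2 summits (92.9%, 68.5 to 98.7). At Sox9 this was 4 of 22 (18.2%, 7.31 to 38.5), and the 2 intervals do not overlap. The 13 Sox2 summits of Sox17 lay at 3 sites that recurred between libraries, so intervals of such pooled counts are too narrow. All 13 lay in coding exons, and without summits there Sox17 kept 1 Oct4 antibody summit and 0 of Sox2. Sox4 (10 of 20, 50.0%) and Sox11 (11 of 21, 52.4%) lay between them, as did Sox5 (46 of 136, 33.8%), Sox6 (39 of 114, 34.2%) and Sox7 (4 of 16, 25.0%), and the intervals of all 5 overlap that of Sox9. Over the whole series 26.6% of these summits were Sox2 summits. The share of Sox6 (26.1 to 43.3) included that value, and the lower bounds of Sox4 (29.9), Sox11 (32.4) and Sox17 lay above it. Without summits in coding exons the shares were 33.3% (15.2 to 58.3) at Sox4 and 41.2% (21.6 to 64.0) at Sox11, intervals that include the 26.4% of the whole series.

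Ordered by Oct4 antibody summits per Mb, Sox9 came first with 171 (101 to 270), and 99.0% of coding genes were lower. Sox6 and Sox7 followed at 112 each, then Sox4 at 95.4, Sox11 at 92.3 and Sox5 at 85.4, all with overlapping intervals. Sox1 at 19.1 (2.31 to 68.9) and Sox17 at 9.40 (0.238 to 52.4) were lowest, below the median of all coding genes, 47.7. Oct4 S151M gave 48 of the 75 summits at Sox6, 8 of 12 at Sox7 and 6 of 18 at Sox9, and in that library alone Sox7 (74.7) and Sox6 (71.9) stood above Sox9 (56.9). In the other 5 libraries Sox9 came first with 114 (58.8 to 199), followed by Sox11 with 55.4 (20.3 to 121), and Sox17 had 0 summits. Ordered by Sox2 summits per Mb, Sox17 (122, 65.0 to 209), Sox11 (102, 50.7 to 182) and Sox4 (95.4, 45.8 to 175) came first, with 99.6%, 99.2% and 98.9% of coding genes lower. These 3 did not differ beyond their intervals. Sox6 (58.4), Sox5 (43.7), Sox9 (37.9, 10.3 to 97.0) and Sox7 (37.4, 10.2 to 95.7) followed. The intervals of Sox9 and Sox7, with 4 summits each, include the median of all coding genes, 17.5. Sox1 had 0 Sox2 summits (up to 35.2 per Mb). All 13 Sox2 summits of Sox17, 4 of 11 at Sox11 and 5 of 10 at Sox4 lay in coding exons. Without summits there Sox17 had 0 Sox2 summits (up to 34.7 per Mb), Sox11 had 64.6 per Mb and Sox4 47.7, with intervals that overlap those of Sox6 and Sox5.

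**Figure D3:**
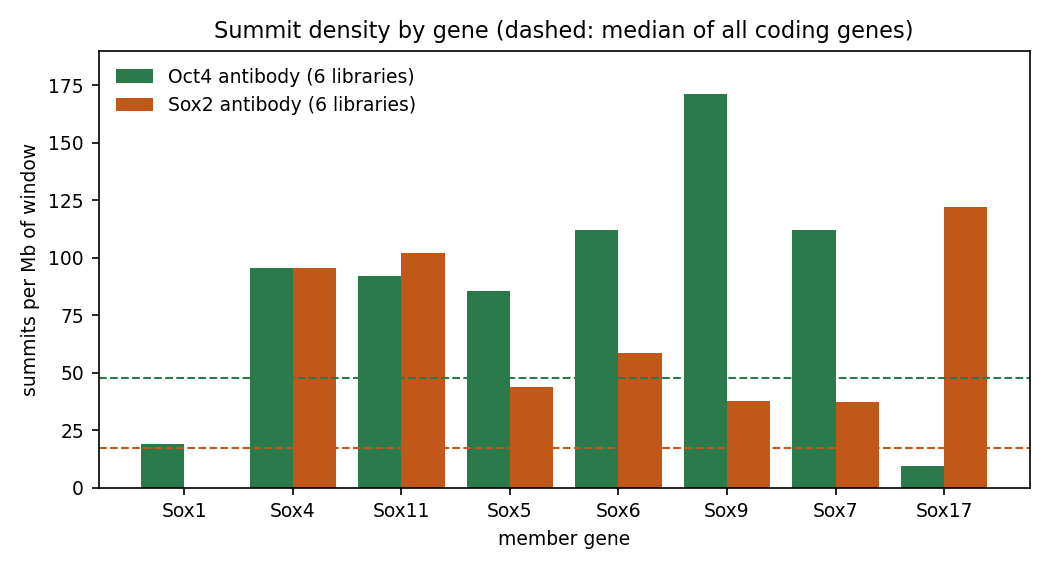
Summits per Mb of window for each gene, pooled over the 6 Oct4 antibody libraries (green) and the 6 Sox2 libraries (orange), with dashed lines at the medians of all coding genes (47.7 and 17.5). Sox9 is highest for the Oct4 antibody at 171, and Sox17 for Sox2 at 122, or 0 without summits in coding exons.

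The SoxE gene Sox9 (ENSMUSG00000000567.5, chr11:112782224-112787760) carried the member site with the most Oct4 antibody libraries. It lay 29044 bp downstream of the start, outside coding genes, and its sequence with the unbroken SoxOct match is printed above. Oct4 scored 48.9 there at day 1, 59.2 at day 5 and 110 at day 7 (percentiles 96.7, 98.0 and 99.7). Oct4defSox2 scored 149 at day 1 and 11.6 at day 5 (percentiles 99.5 and 62.0), and Oct4 S151M scored 218 (96.2), with a fold enrichment of 35.5. All 6 Oct4 antibody libraries had a summit here and none of the 6 Sox2 libraries did. The day 5 summit was the only one that Oct4defSox2 had at any of the 8 genes on that day. A further Sox9 site, in a coding exon 679 bp from the start, was weak for Oct4 at day 1 (7.36, percentile 21.6) and strong at day 5 (143, percentile 99.6), with Oct4defSox2 at 27.6 at day 1. Another Sox9 site, 44174 bp downstream, matched SoxOct, MORE and the octamer and was bound at day 1 by Oct4 (19.0), Oct4defSox2 (61.4) and Oct4 S151M (181). Summits of both antibodies were found at 1 Sox9 site, 12362 bp upstream, with a Sox sequence, where Oct4defSox2 scored 17.3 at day 1 and Sox2 23.6 and 39.0 at day 5 in Oct4-SK and Oct4defSox2-SK cells.

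The SoxF gene Sox17 (ENSMUSG00000025902.13, chr1:4490931-4497354) was the converse. Sox2 had a summit at the first printed site, 4166 bp from the start, in 6 of 6 Sox2 libraries. With Oct4-SK the scores at days 1 and 5 were 24.5 and 87.0, with Oct6-SK 22.2 and 36.0, and with Oct4defSox2-SK 21.9 and 281, with percentiles from 96.6 to 100. At the second printed site, 3115 bp from the start, Sox2 had summits in 5 libraries, with 45.4 in Oct4-SK and 121 in Oct4defSox2-SK cells at day 5. Scores were higher at day 5 than at day 1 in each cocktail with both days, but at the first site the percentile in Oct6-SK cells was 99.6 at day 1 and 99.2 at day 5. Oct6 M151S had summits at both sites, at 5.60 and 8.83 (percentiles 86.1 and 98.5). Its highest score at this gene, 17.9 (percentile 99.9), was at another coding exon site 4419 bp from the start, with a Sox sequence and no Sox2 summit. The Oct4 antibody had 1 summit in the whole window, an Oct4 S151M summit of 11.0 lying 40770 bp upstream. The Oct4 antibody libraries of Oct4-SK and Oct4defSox2-SK cells had none at the Sox2 sites.

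The position of these summits within Sox17 set the gene apart. Of its 17 summits, 16 (94.1%) lay in its 4 coding exons, which make up 1.29% of the window, and all 13 Sox2 summits did. Over all genes, 1.26% of the summits of the Sox2 libraries lay in coding exons, and the highest share of any library was 3.35%, in Oct6 M151S. At Sox4 and Sox11, whose coding sequence is a single exon, 5 of 23 summits each lay in it, at Sox9 3 of 22, and at Sox6 1 of 125. The other 3 members had none. The retroviruses carry the cDNAs of Sox2 and of Klf4 and a POU factor, so the coding exons of those genes were looked at in the same way after these values had been seen. Those of Sox2 held summits in 6 of 6 Sox2 libraries and those of Pou5f1, the gene of Oct4, in 6 of 6, the Oct6-SK libraries included, with scores from 18.0 to 178 and from 28.0 to 281. Those of Klf4 held one in 1 of 6. Of the 6 Oct4 antibody libraries, 2 had summits in the coding exons of Sox2, 2 in those of Klf4 and 2 in those of Pou5f1, and 0 in those of Sox17. The Oct6 M151S library had summits in those of Sox2, Klf4 and Sox17, with highest scores of 14.4, 13.3 and 17.9, and 0 in those of Pou5f1. No retrovirus for Sox17 is named in the labels. Whether DNA of a cDNA contributes to the Sox17 summits was not tested. Without any summits in coding exons, the pooled Sox2 density ratio of the 8 windows was 1.96 (1.61 to 2.38).

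**Figure D4:**
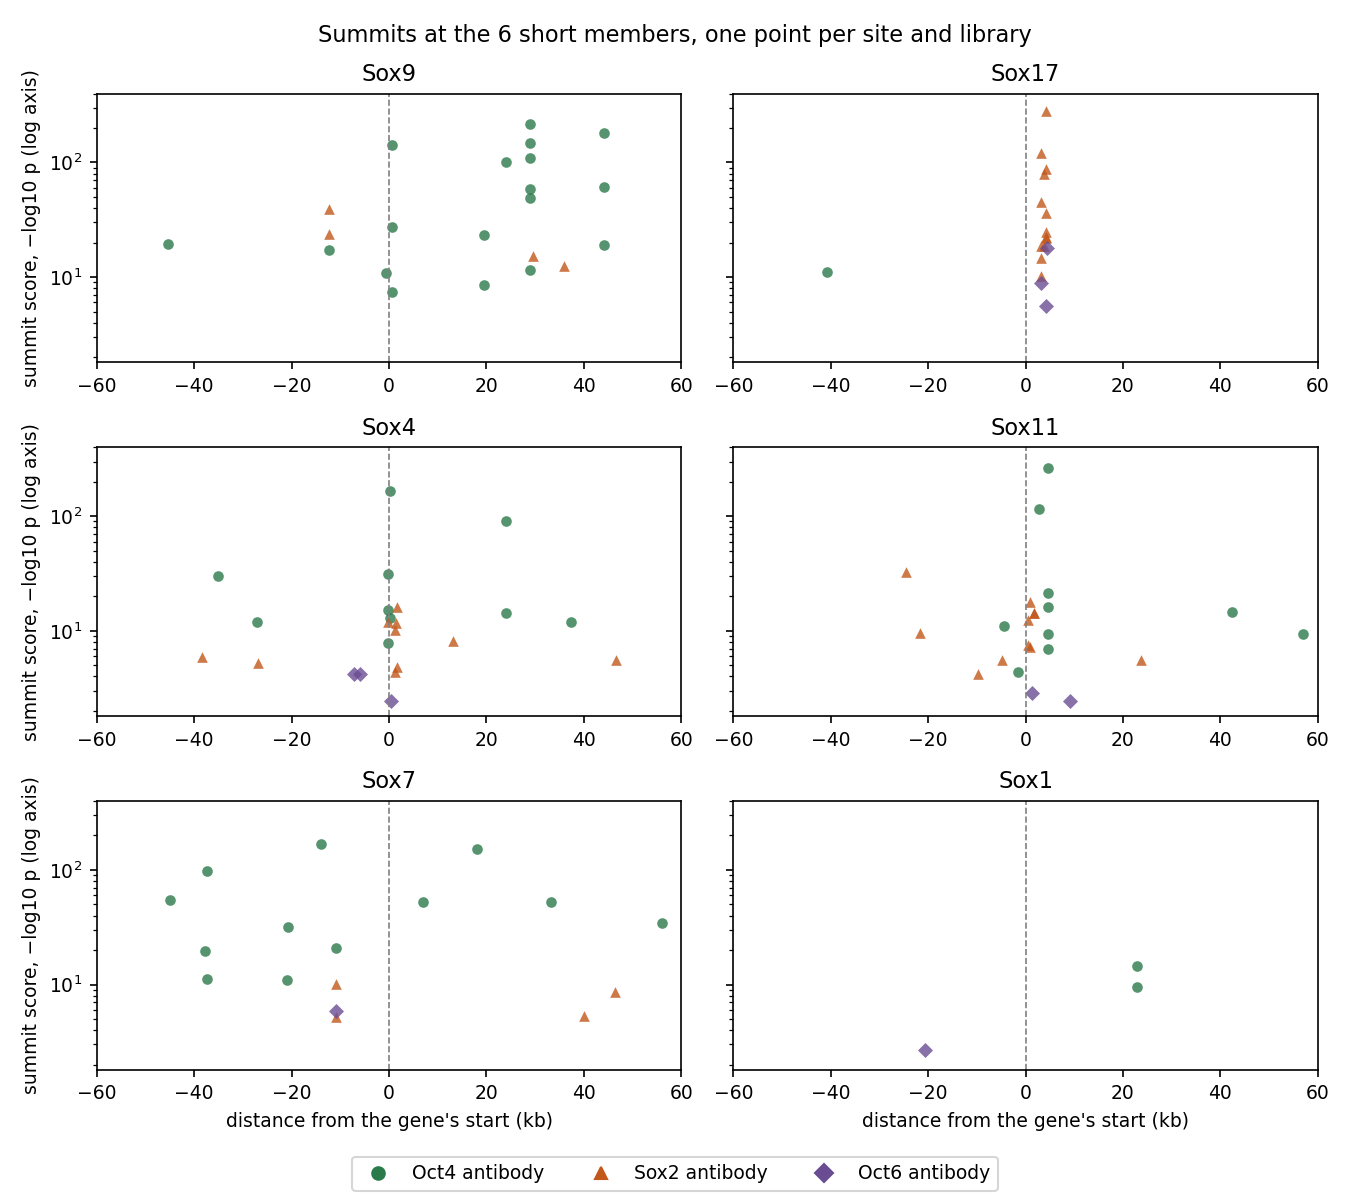
Summit scores (−log10 p, log axis) against distance from the start of the gene in kb for the 6 short members, 1 point per site and library, coloured by antibody. Sox17 has all its Sox2 points within the gene, between 3115 and 4166 bp from its start, whereas the points of Sox9 spread to 44174 bp downstream.

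The SoxC genes carried summits in their single exons, and Sox4 also had a site just upstream of its start. At Sox11 (ENSMUSG00000063632.6, chr12:27334264-27342574) a site in the untranslated part of the exon, 4643 bp from the start, was 1 of the 2 member sites with Oct4 on all 3 days. Oct4 scored 6.92, 9.36 and 16.1 at days 1, 5 and 7 (percentiles 18.5, 46.8 and 76.8), Oct4defSox2 21.3 at day 1 and Oct4 S151M 263, and Sox2 had no summit. None of the motifs was found there. Sox2 bound 3 other places of the gene, 431, 917 and 1738 bp from the start. It did so only at day 5, in Oct4-SK cells (7.49, 17.9 and 14.4) and in Oct4defSox2-SK cells (12.4, 7.24 and 14.3), and in neither Oct6-SK library. At Sox11 0 of 16 sites had both antibodies, against 6.63% of sites elsewhere, and 16 sites are too few to tell these apart.

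At Sox4 (ENSMUSG00000076431.4, chr13:28948919-28953713) 1 site had both antibodies. It lay 161 bp upstream of the start and had Oct4 (15.3, percentile 77.6) and Sox2 (11.9, percentile 70.3) summits in Oct4-SK cells at day 5, beside Oct4defSox2 (7.87) and Oct4 S151M (31.4) at day 1. The Oct4 and Sox2 summits themselves lay further apart than 100 bp and met only through the merged site. Within the Sox4 exon, 3 coding sites 1131 to 1691 bp from the start carried 5 Sox2 summits, with scores from 4.35 to 16.1. Of the remaining 12 Sox4 sites, 10 had a summit in 1 library only.

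The SoxD genes Sox5 (ENSMUSG00000041540.16, chr6:143828425-144781977) and Sox6 (ENSMUSG00000051910.13, chr7:115470872-116038796) are the long members. Together they held 71.8% of the summits in 73.0% of the window length, so per Mb they were like the other members. Of the 185 sites at these 2 genes, 171 lay in introns and 142 had a summit in 1 library only. The strongest Oct4 site of any member at day 1 was in a Sox5 intron (chr6:144733352-144733552). Oct4 scored 132 at day 1 and 6.61 at day 5 (percentiles 99.7 and 25.2), Oct4defSox2 46.0 at day 1 and Oct4 S151M 776, with a fold enrichment of 94.5. In Sox6 (chr7:115582306-115582506) a site with MORE had Oct4 at 27.0, Oct4defSox2 at 47.4 and Oct4 S151M at 539, all at day 1, and Oct6 M151S at 5.26. Neither site had a Sox2 summit. These 2 sites were singled out after their values had been seen.

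Within the SoxD genes Oct4 S151M gave the most summits, 59 at Sox5 and 48 at Sox6, and Oct4defSox2 at day 1 gave 26 and 23. Wild-type Oct4 gave 3 and 4 at day 1, 2 and 0 at day 5 and 0 at either gene at day 7. Oct6 M151S gave 6 and 11. Sox2 gave 11 and 7 in Oct4-SK cells at day 1 and 6 and 4 at day 5, against 6 and 8, then 19 and 18, in Oct4defSox2-SK cells, and at most 3 in either Oct6-SK library. Sox6 has an internal start, and sites of different libraries lay just upstream of it. Sox2 had a summit 353 bp upstream in Oct4-SK cells at day 5 (4.35). A site 674 bp upstream had Sox2 in Oct4-SK cells at day 1 (7.66) and in Oct4defSox2-SK cells at day 5 (12.3). Oct4defSox2 at day 1 scored 4.41 at a site 847 bp upstream, and Oct4 S151M scored 293 at a site with MORE 1442 bp upstream. No wild-type Oct4 summit lay at any of these 4 sites.

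The next question was where a POU factor and Sox2 bound within 100 bp in the same cells. For Oct4 and Sox2 in Oct4-SK cells at day 1 there was 1 such site, the printed Sox5 site with MORE, with Oct4 at 36.0 and Sox2 at 34.6 (percentiles 93.8 and 99.4). That is 1 of 12 Oct4 sites (8.33%, 1.49 to 35.4), against 19.8% of the Oct4 sites elsewhere. At day 5, 0 of the 20 Sox2 sites had an Oct4 summit within 100 bp (up to 16.1%), against 8.14% elsewhere. The nearest pair was in a Sox5 intron, where Sox2 (14.4) and Oct4 (9.58) lay 111 bp apart and both windows matched SoxOct. Both differences were within counting error. For Oct4defSox2 and Sox2 in Oct4defSox2-SK cells at day 1 there were 9 such sites of 63 (14.3%, 7.70 to 25.0), against 8.71% elsewhere, again within counting error (difference 5.57 points, −1.02 to 16.3). Of the 9, 4 were in Sox5, 4 in the Sox6 window and 1 was upstream of Sox7. A Sox sequence was found in 5 of them, MORE in 1 and SoxOct in 0, counts that were not compared with such sites elsewhere. The printed Sox6 site fell just outside this count, since its Oct4defSox2 (36.2) and Sox2 (31.2) summits at day 1 lay 102 bp apart.

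These Oct4defSox2 and Sox2 sites can be read member by member. In Sox5 the printed site with 2 Sox sequences had Oct4defSox2 at 11.9 and Sox2 at 8.86 at day 1 and 40.7 at day 5. Another Sox5 site (chr6:144021741-144021941) had Oct4defSox2 at 7.87 and Sox2 at 17.6, with Sox2 at 38.2 at day 5, and Sox2 at 23.9 in Oct4-SK cells at day 1. In Sox6 a site 176 bp upstream of an internal start had Oct4defSox2 at 8.64 and Sox2 at 5.27 at day 1 and 21 at day 5. The site in the Sox7 window (ENSMUSG00000063060.6, chr14:63943673-63950732) lay 10951 bp upstream of the gene. Oct4defSox2 scored 20.7 there, Sox2 10.1 in the same cells and Sox2 5.20 in Oct6-SK cells, all at day 1, and Oct6 M151S scored 5.83. No Sox2 summit was left there at day 5. Of the other 12 Sox7 sites, 8 were bound by Oct4 S151M, and 6 lay in introns of neighbouring genes.

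Some sites had a Sox2 summit in all 3 cocktails. Their number was not set against the share of such sites elsewhere, so it is not a trait of these genes. At day 1, 2 member sites had Sox2 in all 3 cocktails, the Sox17 site above and the printed Sox6 site. The Sox6 site scored 17.0 in Oct4-SK, 9.55 in Oct6-SK and 31.2 in Oct4defSox2-SK cells (percentiles 92.2, 80.3 and 99.3), and at day 5 4.35 in Oct4-SK and 10.1 in Oct4defSox2-SK cells, with no summit in Oct6-SK cells. At day 5, 6 sites had Sox2 in all 3 cocktails, 2 in coding exons of Sox17, 3 in Sox5 and 1 in Sox6. The printed Sox5 site of this kind scored 11.9 with Oct4-SK, 15.6 with Oct6-SK and 89.6 with Oct4defSox2-SK. The 3 Sox5 sites and the Sox6 site also had Oct4defSox2 at day 1, at 13.6, 15.0, 12.0 and 16.8, and none had wild-type Oct4. Of the 20 Sox2 sites in Oct4-SK cells at day 5, 7 (35.0%) were bound in Oct6-SK cells as well, against 16.5% elsewhere (difference 18.5 points, 1.57 to 40.2). At day 1 this was 1 of 23 (4.35%) against 5.28% elsewhere (−0.93 points, −4.52 to 15.7). Without summits in coding exons the day 5 count was 4 of 14, and the difference was within counting error (12.1 points, −4.83 to 38.1).

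**Figure D5:**
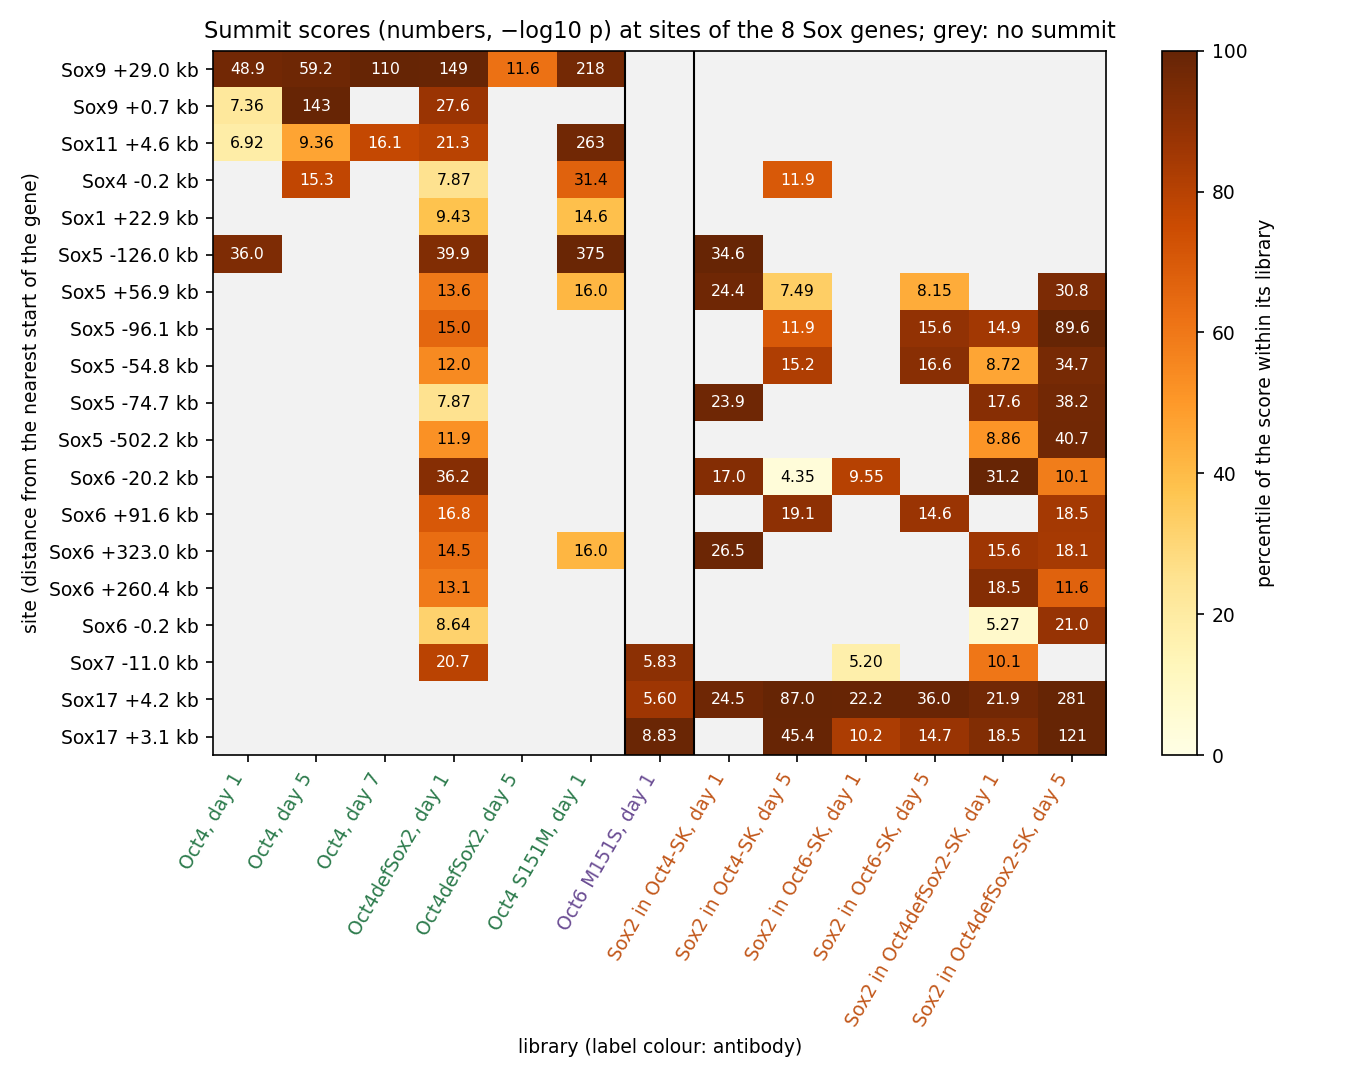
Scores (numbers, −log10 p) and within-library percentiles (colour) at 19 sites of the 8 genes, named by distance from the nearest start of the gene, for each library; grey means no summit. The Sox9 site at the top is filled in all 6 Oct4 antibody columns and in no Sox2 column, and the 2 Sox17 sites at the bottom are filled in 6 and 5 Sox2 columns and in no Oct4 antibody column.

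Binding was then compared across days and cocktails with the same measure at all other sites. Of 12 Oct4 day 1 sites at these genes, 4 were bound at day 5 (33.3%) against 24.5% elsewhere, 8 by Oct4defSox2 (66.7%) against 57.4%, and 9 by Oct4 S151M (75.0%) against 78.2%. With all summits these 3 differences were within counting error, the intervals running from −10.7 to 36.4, from −18.4 to 28.8 and from −31.4 to 12.9 points. All 3 turned direction in other settings, to −11.3 at day 5 (score of at least 10), −0.27 for Oct4defSox2 (100 kb windows) and 29.7 (5.04 to 54.3) for Oct4 S151M (equal numbers of the strongest summits). Of 63 Oct4defSox2 sites at day 1, 1 was bound at day 5 (1.59%), against 2.35% elsewhere. Of 23 Sox2 sites in Oct4-SK cells at day 1, 3 were bound at day 5 (13% against 7.22%) and 5 in Oct4defSox2-SK cells (21.7% against 10.6%), and of 20 at day 5, 11 were bound in Oct4defSox2-SK cells (55.0% against 38.2%). Each of these was higher than elsewhere and each interval included 0. The exception was Sox2 in Oct4defSox2-SK cells. Of its 53 sites at day 5, 9 had been bound at day 1 (17.0%, 9.20 to 29.2), against 8.77% elsewhere, a difference of 8.21 points (0.422 to 20.5). In all, 18 such shares were compared, 10 of them listed in the design, and the intervals of 2 left out 0. With a score of at least 10 this difference was 5.39 points (−2.89 to 20.8).

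Sox2 was compared between days within each cocktail. In Oct4-SK cells the share of all Sox2 summits that fell at these genes went from 0.151% (23 summits) at day 1 to 0.343% (20 summits) at day 5, a ratio of 2.27 (1.25 to 4.13). In Oct4defSox2-SK cells it went from 0.311% (18) to 0.246% (53), a ratio of 0.791 (0.464 to 1.35), and in Oct6-SK cells from 0.185% (6) to 0.262% (7), a ratio of 1.42 (0.476 to 4.21). The number of Sox2 summits in the library fell from 15222 to 5832 in Oct4-SK cells and rose from 5794 to 21563 in Oct4defSox2-SK cells. The Oct4-SK ratio over the Oct4defSox2-SK ratio was 2.87 (1.29 to 6.40). With equal numbers of the strongest summits it was 1.36 (0.529 to 3.52), and without summits in coding exons 2.20 (0.911 to 5.31), both within counting error.

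Sites of the 2 antibodies were then counted together. Of the 247 sites, 148 had Oct4 antibody summits without Sox2, 55 Sox2 summits without the Oct4 antibody, and 19 Oct6 antibody summits only. Both Oct4 antibody and Sox2 summits, in any library, were found at 25 (10.1%, 6.95 to 14.5). Except for the 19, a further Oct6 M151S summit at a site was disregarded. Elsewhere 6.63% of 172671 sites had both, a difference of 3.49 points (0.317 to 7.89). Sox5 and Sox6 held 22 of the 25, which is 11.9% of their 185 sites (5.26 points above elsewhere, 1.35 to 10.7). Sox4, Sox7 and Sox9 held 1 each, so that the 6 short members had 3 of 62 (4.84%), a difference of −1.79 points (−4.97 to 6.66). Sites of a single library were fewer, 184 of 247 (74.5%) against 84.2% elsewhere (−9.74 points, −15.5 to −4.71). Sites within 1 kb of a start of the gene numbered 13 (5.26%), with 6 at Sox6, 3 at Sox4 and 2 each at Sox9 and Sox11. This share was not compared with sites elsewhere.

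The DNA motifs at the member sites were mostly as frequent as at other sites of the same length. Of 174 Oct4 antibody sites, 10 matched SoxOct (5.75% against 5.83% elsewhere) and 35 matched MORE or MORE+1 (20.1% against 20.4%). The differences were −0.08 points (−2.68 to 4.43) and −0.25 points (−5.53 to 6.33). The octamer was found in 9.20% against 6.76%, also within counting error. Of 83 Sox2 sites, 26 held CCATTGT or CCTTTGT (31.3%, 22.4 to 41.9) against 21.8% elsewhere, a difference of 9.49 points (0.521 to 20.1). With a score of at least 10 it was 3.99 points (−8.01 to 18.2). The AP-1 sequence TGACTCA was found in 3 of the 83 Sox2 sites (3.61%) against 10.3% elsewhere (−6.65 points, −9.04 to −0.16). KLF sequences (GGGCGTGGC or GGGTGTGGC) were found in 0 of 83 Sox2 sites (up to 4.42%), against 1.17%. In all, 12 motif shares were compared, and 2 intervals left out 0.

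Sox1 (ENSMUSG00000096014.1, chr8:12395295-12400126), the closest relative of Sox2 among the members, had the fewest summits of all 13 libraries together. It had 3 summits in 105 kb, from Oct4defSox2 (9.43) and Oct4 S151M (14.6) at the printed SoxOct site and from Oct6 M151S (2.66) 20607 bp upstream. Neither wild-type Oct4 nor Sox2 had a summit. The same counts were made for 11 other Sox genes, Sox2 among them. They held 69 Oct4 antibody summits, 56.9 per Mb (44.3 to 72.0), and 55 Sox2 summits, 45.4 per Mb (34.2 to 59.0). The members exceeded them for the Oct4 antibody (92.4, 80.6 to 106), while for Sox2 (53.8, 44.9 to 64.1) the intervals overlapped. Of the 55, 9 lay in the coding exons of Sox2, whose cDNA a retrovirus carries. Without summits in coding exons the Sox2 values were 37.9 per Mb (27.8 to 50.6) for the 11 genes and 44.5 (36.4 to 53.9) for the members, still overlapping.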

How the data were processed

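The authors ran ChIP-seq on reprogramming OG2 MEFs. Per the labels, reads were aligned to mm10 with Bowtie2 (version 2.2.5) and peaks were called per library with MACS2. Duplicate and poorly mapped reads had been removed. The deposited summit lists give the −log10 of the MACS2 p-value as a score. The deposited peak tables of Oct4 S151M and Oct6 M151S also give fold enrichment over the local background, a ratio, and the −log10 q-value. No per-sample column was left unused (0).

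Windows and starts came from GENCODE M21 (basic set), and the genome was RefSeq GRCm38.p6. A site was bound in another library when a summit lay within 100 bp. Motifs were consensus matches within 100 bp to each side of a site, where the authors used weight matrices. Shares have Wilson intervals, differences Newcombe intervals, and densities exact Poisson intervals (95%). A difference past counting error is one whose interval leaves out 0 (a ratio, 1). Depth is unknown, and summits of one peak are counted separately and are not independent. Where libraries were pooled, for all members or by gene, a site found in several counts once in each. Intervals of pooled summits are therefore too narrow. Python 3.11.15, numpy 2.4.6, pandas 2.3.3, scipy 1.17.1 and matplotlib 3.10.9 were used, and the procedure was tested on simulated data.

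Members and lists were chosen with earlier results of these data known. Sites named were, for each member, the site of most libraries, those with Oct4 on 3 days, those shared by a POU factor and Sox2 in the same cells and day, those with Sox2 in 3 cocktails, and those within 1 kb of a start. Other sites were chosen after their values were seen. Alternatives were sharing distances of 50 or 250 bp, windows of 10 or 100 kb, a score of at least 10 (4 for Oct6 M151S), equal numbers of the strongest summits, other mismatch limits, motif windows of 50 bp and leaving out sites of all 3 antibodies. Chosen after seeing the data were 1 summit per peak, leaving out coding exons, leaving out Sox5 and Sox6, Sox17 or the Oct4 S151M library, and all settings of the Sox2 day ratio.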

Additional observations from a re-analysis of the deposited data

Results flagged for a closer look

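The change of Sox2 between days was compared between the Oct4-SK and Oct4defSox2-SK libraries, with 1 library for each day. The share of Sox2 summits at the 8 genes had a day 5 to day 1 ratio of 2.27 (1.25 to 4.13) in Oct4-SK cells and of 0.791 (0.464 to 1.35) in Oct4defSox2-SK cells. The ratio of these ratios was 2.87 (1.29 to 6.40), an interval of counting error from 4 libraries with 23, 20, 18 and 53 summits at the genes. It was 4.86 (1.05 to 22.5) without Sox5 and Sox6 and 2.35 (1.01 to 5.48) without Sox17. It fell within counting error without summits in coding exons (2.20, 0.911 to 5.31), with a score of at least 10 (2.65, 0.911 to 7.69) and with equal numbers of the strongest summits (1.36, 0.529 to 3.52). Against Oct6-SK cells it was 1.60 (0.463 to 5.56), within counting error.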

How the results depend on the processing

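The pooled density ratios stayed above 1 in every alternative run for them. For the Oct4 antibody they lay between 1.35 and 1.56 and for Sox2 between 1.96 and 2.86 under the 4 alternatives added after the data had been seen. Other windows, score limits and summit numbers gave values from 1.37 (100 kb) to 2.17 (equal numbers) and from 2.08 (100 kb) through 3.70 (score minimum) to 5.81 (equal numbers). Shares rest on 12 to 63 sites each, and read depth is unknown. The cause of the following changes was not tested.

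For Oct4 day 1 sites bound at day 5, the difference of 8.82 points became −3.13 with 50 bp sharing, −11.3 with a score of at least 10 and −5.92 with equal numbers. For Oct4defSox2 binding at Oct4 day 1 sites, 9.27 became −0.27 with 100 kb windows. For Oct4 S151M binding, −3.19 became 3.27 with 250 bp sharing, 13.3 with the score minimum, 29.7 (5.04 to 54.3) with equal numbers, past counting error, and 3.45 without coding exons. For Oct4defSox2 sites with Sox2 at day 1, 5.57 became 5.93 (50 bp) and 7.00 (100 kb), both past counting error, and −15.6 with equal numbers. For Oct4defSox2 sites bound at day 5, −0.77 became 0.46 with the score minimum and 13.6 with equal numbers. For Sox2 Oct4-SK day 1 sites bound at day 5, 5.83 became −0.014 (50 bp) and −2.75 (score minimum).

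For Sox2 Oct4-SK sites bound in Oct4defSox2-SK cells, the day 1 difference of 11.1 passed counting error at 15.4 (50 bp), 21.6 (score minimum), 13.2 (10 kb) and 12.1 (without sites of all 3 antibodies). The day 5 difference of 16.8 did so at 24.3 (50 bp) and 27.2 (250 bp). For Sox2 Oct4defSox2-SK day 5 sites bound at day 1, 8.21 fell within counting error at 5.39 (score minimum) and 14.4 (equal numbers). For Sox2 sites shared with Oct6-SK at day 5, 18.5 did so at 12.1 (without coding exons) and 15.2 (1 summit per peak).

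The SoxOct difference of −0.08 became 0.59 (50 bp windows), 0.24 (score minimum), 0.87 (1 mismatch) and 0.45 (3 mismatches). The MORE difference of −0.25 became 0.91 (50 bp windows), 2.64 (score minimum), 0.30 (100 kb) and 0.47 (0 mismatches). The Sox sequence difference of 9.49 fell within counting error at 3.99 (score minimum). The Sox2 day ratio of 2.87 did so at 2.20 (without coding exons), 2.65 (score minimum) and 1.36 (equal numbers). With equal numbers, 4 in place of 8 members had an Oct4 antibody summit. Neither this count nor the following ones were set against the share of all coding genes in the same setting. They therefore do not set the members apart from other genes. Among single libraries, 15 counts of members moved by over 1.5 times. They went with equal numbers from 5 to 3 (Oct4, day 1), 4 to 1 (Oct4, day 5), 7 to 1 (Oct4defSox2, day 1), 8 to 2 (Oct4 S151M), 7 to 1 (Oct6 M151S), 5 to 3 (Sox2 at day 1, each cocktail) and 7 to 3 (Sox2 in Oct4defSox2-SK cells, day 5). With the score minimum they went from 4 to 2 (Oct4, day 5), 5 to 2 (Sox2 in Oct6-SK cells, day 1) and 7 to 1 (Oct6 M151S), and with 10 kb windows from 2 to 1 (Oct4, day 7), 1 to 0 (Oct4defSox2, day 5) and 5 to 3 (Sox2 in Oct4defSox2-SK cells, day 1). Among single libraries, the Oct4 density ratio became 0.896 at day 5 (100 kb) and at day 7 1.53 (score minimum) and 2.59 (equal numbers), and Oct4defSox2 at day 5 became 1.98 (score minimum). Those of Oct4 at day 1 (3.91, equal numbers) and Sox2 in Oct6-SK cells at day 1 (6.05, score minimum, and 4.59, equal numbers) passed counting error. Those of Oct4defSox2 at day 1 (2.01) and Oct4 S151M (1.74) with equal numbers and Sox2 in Oct6-SK cells at day 5 (2.23, 100 kb) fell within it. No paired analysis was possible because the labels give no replicate numbers and each group has 1 library.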
